A study of Arabidopsis thaliana with 18 samples.

Results

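Seedlings of wild-type (WT) Arabidopsis thaliana, accession Col-0, were 9 days old when they were treated on 1/2 MS medium with 300 mM mannitol and compared with WT seedlings of the same age on plain 1/2 MS medium (mock). The comparison was defined by the treatment labels of 6 of the 18 libraries in the series, 3 from mannitol and 3 from mock, and covered 21727 of the 33082 listed genes, namely those that reached 1 TPM in 3 libraries or more. TPM, the unit of the values, is a length-corrected share of the transcripts in a library. As a contrast, the mannitol libraries were also set against 3 libraries of WT seedlings given 100 µM abscisic acid (ABA), the stress hormone. Each sample is labelled as treated for 12 h but the description of the whole series gives 24 h, so the duration is uncertain. No group carried a mutation or a transgene. The other 9 libraries, of a mutant labelled bon123t under the same treatments, entered the fit of the error but are not described.

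Mannitol is a sugar alcohol that Arabidopsis does not make in quantity and that lowers the water potential of a medium, so that roots take up water less easily and cells lose turgor. Plants answer such osmotic stress by making ABA, which binds PYR/PYL receptors, blocks the clade A PP2C phosphatases and thereby frees SnRK2 kinases to activate bZIP transcription factors. Protective proteins and compatible solutes accumulate, while growth by cell division and wall loosening, protein synthesis and photosynthesis are held back.

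Pearson correlations of log2(TPM + 1) were taken across all 33082 listed genes, which are not independent replicates. Of these genes 5905 were at 0 in every library. The correlations were 0.988 to 0.991 within the 3 mannitol libraries, 0.985 to 0.990 within mock and 0.941 to 0.957 between both. Read depth cannot be recovered from TPM, so precision rests on the spread between libraries. Mock replicate 1 stood apart in RNA composition, with 6.10% of its TPM on ribosomal RNA genes and 1.04% on chloroplast-encoded genes, against 0.627% to 1.32% and 0.246% to 0.458% in the other 5 libraries of mannitol and mock. Some of the results that lean on that library are given with and without it. Log2 fold changes below are differences of mean log2(TPM + 1), mannitol minus mock unless ABA is named, with the standard error (SE) and the adjusted p of a limma fit over all genes, with 3 libraries per group. A gene is said to rise or fall where its adjusted p was under 0.05. The labels do not say that libraries came from separate cultures, so the p-values reflect only how far libraries spread within groups, which may be technical. That spread was estimated from all 18 libraries, the mutant ones included, and not from the compared libraries alone.

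Mannitol moved about as many genes up as down. Of the tested genes, 5545 (25.5%) rose and 5432 (25.0%) fell, and over all genes the median log2 fold change was 0.02. At least 2-fold, 1774 genes rose and 1647 fell. Only the changes of at least 8-fold were mostly rises, with 159 genes up and 39 genes down. The 15 largest rises include the lipid transfer protein genes LTP4 and LTP3 and late embryogenesis abundant (LEA) protein genes such as LEA7, RAB18 and GEA6, whose products shield dehydrating cells, beside genes of other functions such as ADH1, EXLB1 and CYP76C2. The 15 largest falls include the wall enzyme genes XTH6 and XTH9 and the regulator genes MEE3, RL4 and HBI1, beside genes as unlike as MSRB6, LTL1 and THI2.2.

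LTP4 (AT5G59310), a lipid transfer protein gene, showed the largest rise. It stood at 5999.8, 7907 and 7496 TPM in the 3 mannitol libraries, against 10.05, 33.2 and 19.8 TPM in the 3 mock libraries. Every mannitol library thus lay far above every mock library, and the log2 fold change was 8.48 ± 0.45 (adjusted p = 7.78e-10). LTP3, its neighbouring relative, rose by 6.46 ± 0.40 (6.08 without mock replicate 1). LTP3 and LTP4 are near copies that can share reads, so their sum is firmer than either value. Together they held 1.23%, 1.68% and 1.54% of all TPM in mannitol libraries, against 0.00599%, 0.0180% and 0.0104% in mock libraries. LEA7 was at 1579, 2474 and 2019.7 TPM in mannitol libraries and 2.1, 38.1 and 13.1 TPM in mock libraries, a log2 fold change of 7.38 ± 0.60. TSPO, a stress-induced membrane protein that binds tetrapyrroles, rose by 6.53 ± 0.40 (5.83 without mock replicate 1) and GASA3, a gibberellin-regulated peptide gene, by 5.75 ± 0.18. ADH1, the alcohol dehydrogenase of oxygen shortage, rose by 5.24 ± 0.13, and CSLG2, a cellulose synthase-like gene, by 5.53 ± 0.17.

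**Figure D1:**
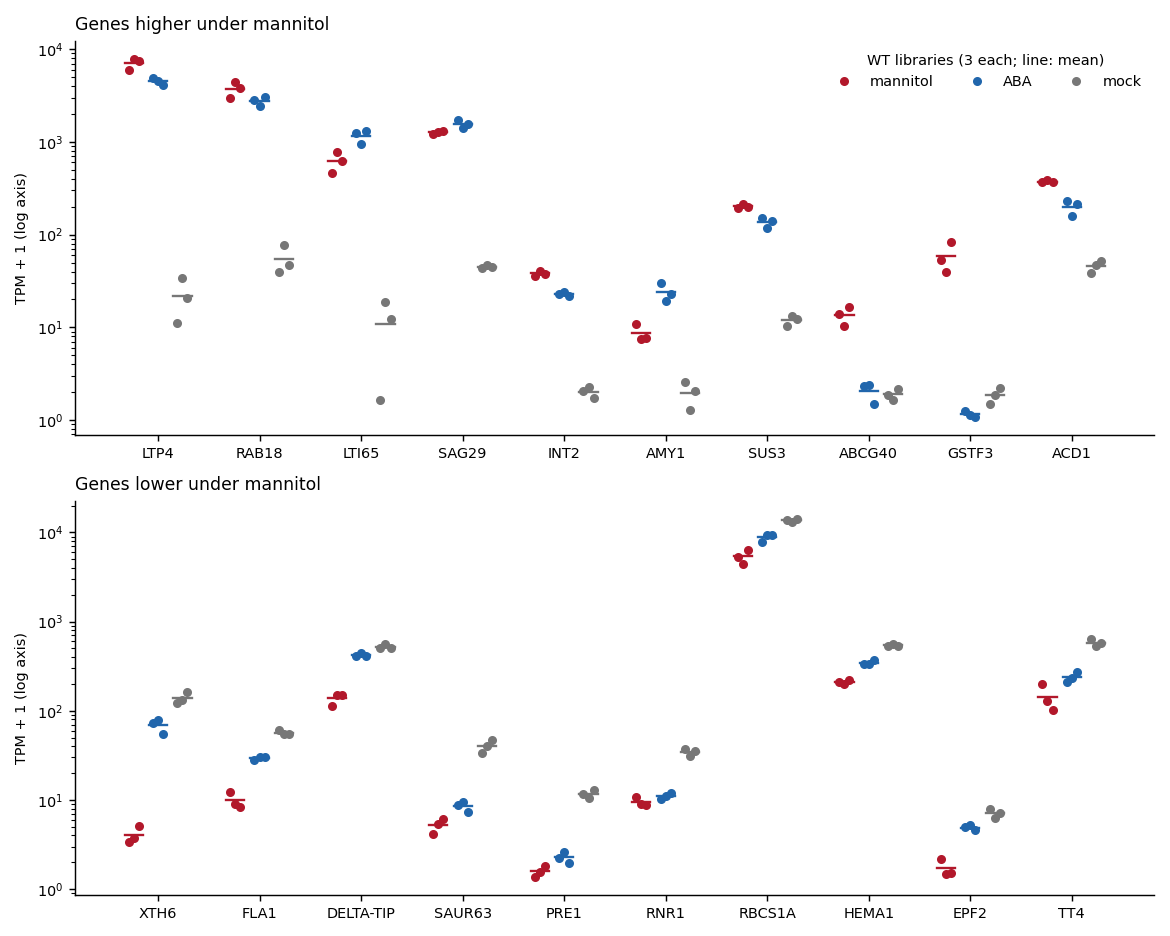
Levels of 20 genes in each of the 3 WT mannitol (red), WT ABA (blue) and WT mock (grey) libraries, as TPM + 1 on a log axis, with 1 point per library and a line at the mean. The upper panel holds genes that rose against mock and the lower panel genes that fell, and in every gene shown the mannitol points do not overlap the mock points; LTI65 is another symbol of RD29B.

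XTH6 (AT5G65730), an enzyme that cuts and rejoins xyloglucan in growing walls, showed the largest fall, with 2.36, 2.76 and 4.14 TPM in mannitol libraries against 122.6, 132 and 162 TPM in mock libraries (-5.11 ± 0.22, adjusted p = 8.22e-11). MEE3, a RADIALIS-like MYB gene, came next and was nearly silent after mannitol, at 0.47, 0.21 and 0 TPM, against 33.2, 25.8 and 23.3 TPM in mock libraries (-4.54 ± 0.18). Its relative RL4 fell as well (-3.38 ± 0.17). HBI1, a bHLH factor that promotes cell elongation, was at 4.44, 4.63 and 6.29 TPM in mannitol libraries and 55.1, 58.5 and 58.3 TPM in mock libraries (-3.26 ± 0.13). MSRB6, a methionine sulfoxide reductase gene, and LTL1, a GDSL lipase gene, fell by 4.34 and 3.58 on the log2 scale, and PCC1, a small membrane protein under circadian and pathogen control, by 3.88. In these genes no mannitol library reached the lowest mock library.

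A small set of genes was listed at 0 on one side. In all mock libraries 18 genes were listed at 0 while every mannitol library held at least 1 TPM, and 7 genes were the reverse. AtMT4a, a seed-type metallothionein gene, was at 4.85, 11.0 and 24.6 TPM after mannitol and listed at 0 in mock. SMP1 (AT3G12960), a seed maturation protein gene, was at 4.06, 4.66 and 5.04 TPM in mannitol libraries, and BSMT1, a methyltransferase that makes methyl benzoate and methyl salicylate, at 9.25, 5.58 and 4.58 TPM, both against a listed 0 in mock. On the other side ACS4, an ethylene synthesis gene, was listed at 0 in all mannitol libraries and at 1.16 to 1.71 TPM in mock libraries, and the light-responsive bHLH gene CIB1 was listed at 0 in mannitol libraries and at 2.97, 9.35 and 13.9 TPM in mock libraries. These 5 genes were picked from the 25 after their values were seen.

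**Figure D2:**
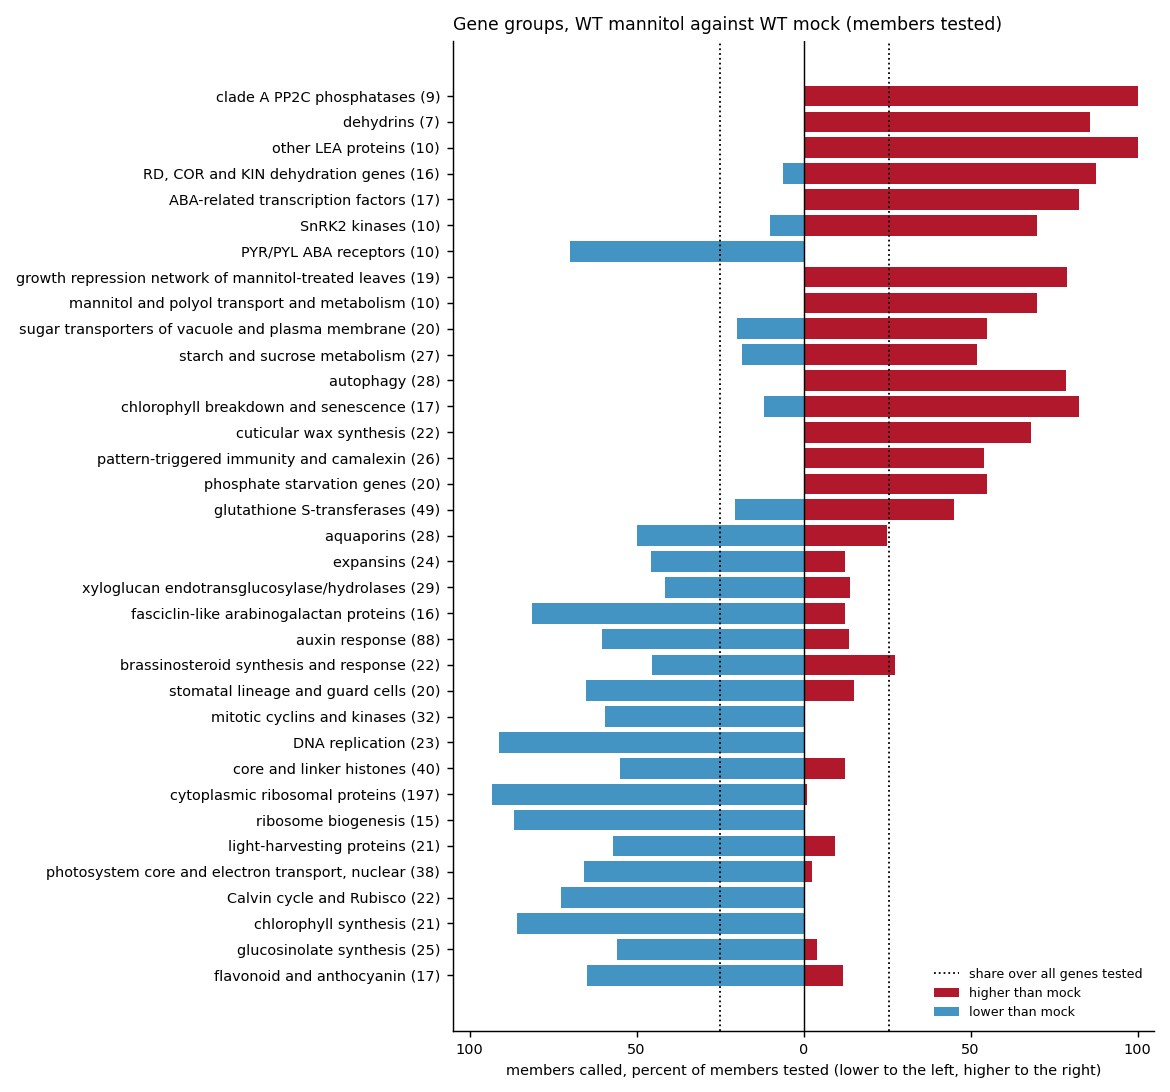
Share of the tested members of 35 gene groups that rose (red, to the right) or fell (blue, to the left) in WT mannitol against WT mock, in percent of the members tested, whose number stands in brackets. Dotted lines mark the shares over all genes tested, 25.5% higher and 25.0% lower; all 9 PP2C phosphatase genes and all 10 of the other LEA genes rose, and 184 of 197 ribosomal protein genes fell.

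The other genes are described by groups, and the count of each group is to be read against the 25.5% and 25.0% of all genes. Where a group is given with 0 rises or 0 falls against mock, limma also found 0 at an unadjusted p under 0.05, except for 1 rise each among translation factors and photorespiration genes and 1 fall among pattern-triggered immunity genes.

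Genes that make, break down and move ABA rose more often than they fell. Most receptor genes fell, all phosphatase genes of the pathway rose, and most of its kinase genes rose. In ABA synthesis 6 of 10 tested genes rose and 1 fell (median 0.43), but only 3 rose without mannitol replicate 1, without mannitol replicate 2 or without mock replicate 3. NCED3 (AT3G14440), the rate-limiting cleavage enzyme of the pathway, was at 64.6, 83.4 and 78.8 TPM in mannitol libraries against 4.21, 6.37 and 6.31 TPM in mock libraries (3.54 ± 0.22), with no overlap. AAO3, the aldehyde oxidase of the last step, was at 29.6, 32.4 and 31.4 TPM after mannitol and 6.12, 7.07 and 7.56 TPM in mock (2.02 ± 0.23). ABA2, the dehydrogenase of the step before it, went the other way and fell by 0.68. Breakdown genes rose along with synthesis genes: of 6 genes for breakdown and conjugation, 5 rose and 0 fell (median 1.38). The ABA hydroxylase genes CYP707A3 and CYP707A1 rose by 2.24 ± 0.19 and 2.01 ± 0.26, the first of them with 13.2, 22.1 and 17.4 TPM in mannitol libraries against 2.18, 2.88 and 3.62 TPM in mock libraries. Among 6 transport genes 4 rose and 1 fell. The importer gene ABCG40 reached 13.1, 9.39 and 15.5 TPM after mannitol and stayed at 0.88, 0.65 and 1.15 TPM in mock (2.83 ± 0.20), and the exporter gene ABCG25 rose by 1.243 ± 0.15.

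In the signalling core, 7 of 10 tested PYR/PYL receptor genes fell and 0 rose (median -0.84). PYL4 was at 15.5, 11.4 and 13.9 TPM in mannitol libraries and 49.6, 59.4 and 64.7 TPM in mock libraries (-2.01 ± 0.15), and PYL6 at 0.93, 0.58 and 0.55 TPM after mannitol and 5.88, 5.83 and 6.11 TPM in mock (-2.05 ± 0.12). In both receptors every mannitol library lay below every mock library. All 9 clade A PP2C genes rose, with a median of 2.55 against 0.02 over all genes. HAI1 was at 249, 299.7 and 292 TPM after mannitol, and its mock libraries were uneven at 5.40, 21.1 and 15.2 TPM, the lowest being replicate 1 (4.41 ± 0.31, and 3.88 without mock replicate 1). AHG1, a seed-type PP2C, was at 6.86, 8.64 and 7.79 TPM after mannitol and at 0.21, 0.23 and 0.24 TPM in mock (2.83 ± 0.20). Of 10 SnRK2 kinase genes 7 rose and 1 fell, among them OST1, the guard cell kinase, at 50.7, 55.2 and 49.8 TPM in mannitol libraries against 19.1, 22.8 and 19.5 TPM in mock libraries (1.304 ± 0.14). Downstream, 14 of 17 ABA-related transcription factor genes rose (median 1.92), and the homeodomain genes HB-7 and HB-12 were the most abundant of those named. HB-7 (AT2G46680) was at 474, 567 and 497 TPM after mannitol and 59.8, 71.0 and 76.2 TPM in mock (2.88 ± 0.15). In the DREB and CBF family, which binds another drought element, 6 of 8 tested genes rose and 1 fell, with DREB1A at 4.40, 4.22 and 4.04 TPM in mannitol libraries and 0.47, 0.64 and 0.29 TPM in mock libraries (1.84 ± 0.14).

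The genes for protective proteins carried the strongest rises. Of 7 dehydrin genes 6 rose (median 2.62), of 10 other LEA genes all 10 rose (median 3.16), and of 16 genes named RD, COR or KIN for their induction by drought or cold 14 rose and 1 fell (median 1.87). Dehydrins as a group took 0.761, 1.03 and 0.843 percent of all TPM in mannitol libraries and 0.138, 0.178 and 0.166 percent in mock libraries. The dehydrin gene RAB18 (AT5G66400) was at 2982, 4380.0 and 3782 TPM after mannitol and 38.6, 77.0 and 46.6 TPM in mock (6.12 ± 0.22), followed by LTI30 (3.41 ± 0.20), ERD10 (2.69 ± 0.17) and COR47 (2.55 ± 0.16). RD29B (AT5G52300, listed as LTI65), the classical ABA reporter gene, was at 460.4, 786 and 623 TPM in mannitol libraries and 0.65, 17.9 and 11.3 TPM in mock libraries (6.39 ± 0.62). EM6 (AT2G40170, listed as GEA6), a LEA protein of dry seeds, was at 113, 145 and 117 TPM after mannitol and 1.16, 1.91 and 1.13 TPM in mock (5.72 ± 0.19). RD20, a caleosin of lipid droplets, rose by 3.103 ± 0.17 and COR413IM1, a protein of the chloroplast inner envelope, by 3.51 ± 0.21. The exception was ERD9, a glutathione S-transferase gene first found as dehydration-induced, which fell by 0.82 and was at 151, 160.5 and 146 TPM in mannitol libraries against 281, 254 and 277 TPM in mock libraries. Mock replicate 1 was the lowest mock library for 33 of 42 genes of the dehydration lists (78.6%), against 12095 of all 21727 tested genes (55.7%). Without it the log2 fold changes of LTP4, LEA7, LTI65 and RAB18 were 8.05, 6.41, 5.32 and 5.91, all still called.

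The sequences upstream of 4 of these genes are shown because the ABA response is read through short DNA elements in that region. They are RefSeq sequences of the assembly TAIR10.1, the 250 bases before the annotated gene start on the gene's own strand, in lower case with every match to a searched motif in capitals. RD29B lies at chr5:21236771-21237020 (+), RAB18 at chr5:26519448-26519697 (-), EM6 at chr2:16780369-16780618 (-) and LTP4 at chr5:23925958-23926207 (-).
RD29B: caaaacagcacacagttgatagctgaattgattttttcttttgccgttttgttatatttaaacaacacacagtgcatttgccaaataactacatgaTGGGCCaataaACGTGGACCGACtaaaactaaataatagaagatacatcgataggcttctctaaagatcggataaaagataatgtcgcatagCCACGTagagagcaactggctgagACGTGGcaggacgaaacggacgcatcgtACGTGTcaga
RAB18: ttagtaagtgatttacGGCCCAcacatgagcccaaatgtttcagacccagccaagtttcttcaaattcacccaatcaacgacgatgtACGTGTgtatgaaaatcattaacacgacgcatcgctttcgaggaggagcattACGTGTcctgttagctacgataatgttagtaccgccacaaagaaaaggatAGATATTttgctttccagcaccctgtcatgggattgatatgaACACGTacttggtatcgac
EM6: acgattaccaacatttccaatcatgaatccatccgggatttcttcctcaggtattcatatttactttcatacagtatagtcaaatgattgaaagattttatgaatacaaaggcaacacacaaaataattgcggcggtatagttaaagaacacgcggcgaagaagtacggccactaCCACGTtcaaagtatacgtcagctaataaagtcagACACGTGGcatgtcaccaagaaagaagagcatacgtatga
LTP4: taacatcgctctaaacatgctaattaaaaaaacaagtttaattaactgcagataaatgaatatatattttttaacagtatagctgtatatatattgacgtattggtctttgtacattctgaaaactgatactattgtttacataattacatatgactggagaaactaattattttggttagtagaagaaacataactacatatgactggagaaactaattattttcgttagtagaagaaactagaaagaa
On both strands 12 motifs were searched. They were the ABA-responsive element with G (ACGTGG) or T (ACGTGT), the dehydration-responsive element with A (ACCGAC) or G (GCCGAC), the G-box (CACGTG, which overlaps both ABA-responsive forms), the W-box core (TTGACC), the evening element (AATATCT), site II (TGGGCC), the telo-box (AAACCCTA), the I-box (GATAAG), the MSA element (TAACGG) and the TATA box (TATAAA). RD29B held ACGTGG 143, 62 and 38 bases before the gene start and ACGTGT at 10 bases, with a dehydration-responsive element (ACCGAC) directly after the first of them at 137 bases. RAB18 held ACGTGT at 163, 111 and 19 bases, the last on the reverse strand, and its window overlaps another annotated gene. EM6 held a run ACACGTGG around 40 bases in which a G-box and both ABA-responsive forms overlap, and a further match at 75 bases. The window of LTP4, the gene with the largest rise, held none of the 12 motifs, which says only that these letters are not in this window.

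Across all 21386 windows that could be read, 17.3% held at least 1 ABA-responsive form. The share was 47.1% in the 157 windows of genes that rose at least 8-fold, 28.3% in the 1753 windows of genes that rose at least 2-fold, 15.4% in the 1627 windows of genes that fell at least 2-fold and 23.7% in the 38 windows of genes that fell at least 8-fold. In the gene groups it was 80.0% of the 10 other LEA genes, 66.7% of the 9 PP2C genes, 56.2% of the 16 RD, COR and KIN genes and 42.9% of the 7 dehydrin genes. Among groups that mostly fell it was 42.9% of the 21 light-harvesting genes, 28.1% of the 32 mitotic genes, 22.7% of the 22 Calvin cycle genes and 13.2% of the 197 ribosomal protein genes. The G-box was held by 22.9% of windows of genes up at least 8-fold and 7.29% of all windows, and either form of the dehydration-responsive element by 15.9% and 7.73%. The W-box core was held by 9.55% of windows of genes up at least 8-fold, 13.5% of those up at least 2-fold and 12.3% of all windows. Among the 26 genes of pattern-triggered immunity and camalexin its share was 34.6%. These are counts of letters and not of bound sites.

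**Figure D3:**
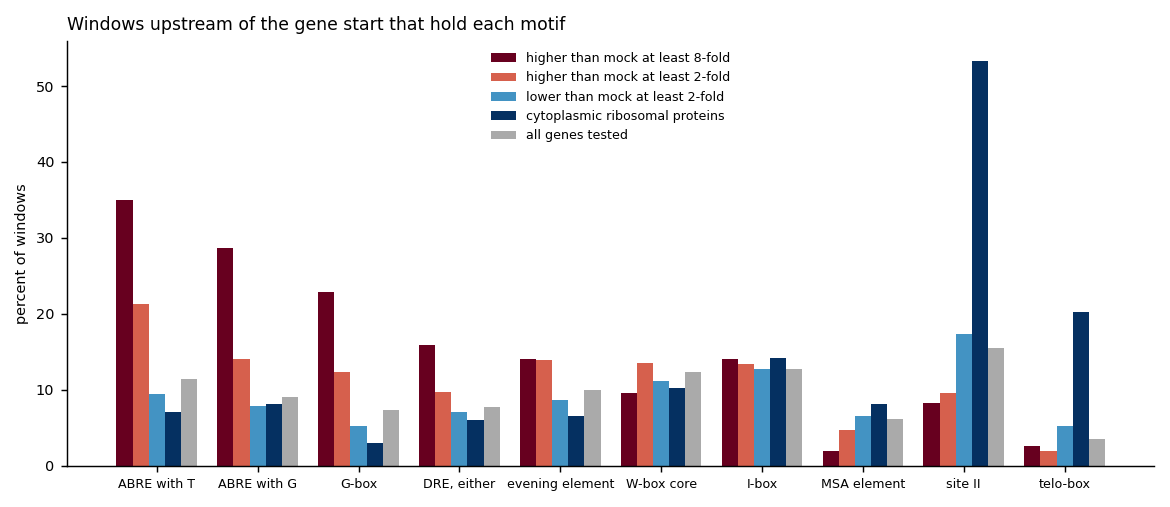
Percent of the 250-base windows upstream of gene starts that hold each motif, for genes higher than mock at least 8-fold, higher at least 2-fold, lower at least 2-fold, the 197 ribosomal protein genes and all genes tested. The ABA-responsive forms are most frequent in the genes with the largest rises (55 of 157 windows with ACGTGT and 45 with ACGTGG), and site II in the ribosomal protein genes (53.3%, against 15.5% of all genes tested).

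Genes of carbohydrate metabolism and sugar transport rose more often than they fell. Of 27 genes for starch and sucrose metabolism 14 rose and 5 fell (median 0.39), 3 of them without mock replicate 3, and of 20 sugar transporter genes 11 rose and 4 fell (median 0.75). SUS3, a sucrose synthase gene, was at 191, 215 and 198 TPM in mannitol libraries and 9.30, 12.3 and 11.4 TPM in mock libraries (4.08 ± 0.21), and SUS1 rose by 2.54 ± 0.16. APL4, a subunit of the enzyme that makes ADP-glucose for starch, rose by 3.53 ± 0.16, and AMY1, a secreted alpha-amylase, by 2.17 ± 0.24. The chloroplast beta-amylase gene CT-BMY fell by 1.05. The SWEET exporter gene SAG29 (SWEET15) was among the most uniform of all responses, at 1227, 1285 and 1317 TPM in mannitol libraries against 42.9, 45.9 and 44.2 TPM in mock libraries (4.82 ± 0.12, adjusted p = 5.71e-13). SWEET4 and SWEET12 rose by 4.41 ± 0.12 and 3.30 ± 0.14, while SWEET16 of the vacuole membrane fell to 2.19, 2.89 and 2.74 TPM in mannitol libraries, against 21.6, 23.2 and 24.7 TPM in mock libraries (-2.75 ± 0.13). The hexose importer gene MSS1 (STP13) rose by 2.44 ± 0.17 and the sucrose importer gene SUC1 fell by 0.79.

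Among genes of compatible solutes, members of both synthesis and breakdown rose. Of 9 genes for proline 5 rose and 2 fell. The synthesis genes P5CS1 and DELTA-OAT rose by 2.35 ± 0.20 and 1.67 ± 0.15. ERD5, the proline dehydrogenase of the breakdown route, rose as well (1.22 ± 0.26, and 0.96 without mock replicate 1). It was at 113, 104.7 and 67.3 TPM in mannitol libraries and 27.2, 47.3 and 47.4 TPM in mock libraries. P5CR, the last enzyme of synthesis, fell by 0.56. Of 20 genes for galactinol, raffinose and trehalose 5 rose and 4 fell, shares of members near those of all genes. GolS2, a galactinol synthase, rose by 2.81 ± 0.28 and SIP2, an enzyme that cleaves raffinose, by 3.44 ± 0.20. GolS3, known for induction by cold, fell to 0.43, 0.23 and 0.14 TPM after mannitol, against 3.93, 3.36 and 2.76 TPM in mock (-1.78 ± 0.13).

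Genes for the transport and metabolism of mannitol and other polyols rose in 7 of 10 tested cases and fell in 0 (median 0.75). INT2, an inositol transporter of the plasma membrane, was at 35.2, 39.9 and 36.3 TPM in mannitol libraries and 1.04, 1.29 and 0.75 TPM in mock libraries (4.24 ± 0.14, adjusted p = 7.94e-12). PMT5, a transporter of broad range that carries polyols and monosaccharides, was at 171, 175 and 169.7 TPM after mannitol and 24.6, 29.6 and 37.1 TPM in mock (2.48 ± 0.15), without overlap and with little spread. Its relative PMT6 was not called and overlapped, at 4.90, 4.89 and 9.47 TPM in mannitol libraries and 4.15, 7.2 and 6.08 TPM in mock libraries (0.09 ± 0.23, adjusted p = 0.763). ELI3-1, which belongs to a dehydrogenase family once described as mannitol dehydrogenases, rose by 1.703 ± 0.21 and INT4 by 0.67 ± 0.12. ELI3-2 (0.62 ± 0.25, adjusted p = 0.0499) and CAD6 (0.84 ± 0.22, adjusted p = 0.00523) of that family were also called. CAD6 lost its call in a fit of the 6 libraries alone (adjusted p = 0.0520). ELI3-2 lost it there (adjusted p = 0.104) and under 9 alternatives in all (adjusted p from 0.0548 to 0.23). With median-of-ratios scaling or without ribosomal RNA, 6 genes of the list rose in place of 7. CAD9 (0.33 ± 0.25, adjusted p = 0.295) and INT1 (0.32 ± 0.15, adjusted p = 0.0796) were not called, although INT1 passed in the fit of the 6 libraries (adjusted p = 0.0122).

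Most genes for candidate sensors of osmotic stress were not called. Of 12 channel and kinase genes 1 rose and 3 fell, and only 1 fell without mannitol replicate 3, without mock replicate 2 or without mock replicate 3. ERD4, a member of the OSCA channel family, rose by 0.61 ± 0.12, with 124, 129 and 129 TPM in mannitol libraries and 75.0, 85.8 and 87.9 TPM in mock libraries. Its relative OSCA1 (AT4G04340), the calcium channel opened by high osmolality, was at 51.4, 51.0 and 56.4 TPM after mannitol and 58.1, 61.4 and 65.8 TPM in mock and was not called (-0.22 ± 0.16, adjusted p = 0.277). The histidine kinase gene HK1, a proposed osmosensor, was at 9.35, 8.23 and 10.04 TPM in mannitol libraries and 9.86, 10.6 and 9.81 TPM in mock libraries, with overlap (-0.12 ± 0.11, adjusted p = 0.396). MSL10, a mechanosensitive channel gene, fell by 0.58. The cytokinin receptor gene WOL (-0.64 ± 0.21, adjusted p = 0.0197) and the calcium channel gene MCA1 (-0.27 ± 0.11, adjusted p = 0.0436) fell, but neither call was firm. WOL lost it without mannitol replicate 3, mock replicate 2 or mock replicate 3 (adjusted p up to 0.0843), and MCA1 whenever any 1 library was left out, with a pseudocount of 0.1 and with the replicate block (adjusted p from 0.0505 to 0.147). The others, HK2 (-0.43 ± 0.20, adjusted p = 0.0817), HK3 (0.59 ± 0.30, adjusted p = 0.109), FER (0.24 ± 0.18, adjusted p = 0.300), MCA2 (-0.23 ± 0.12, adjusted p = 0.131), MSL9 (-0.12 ± 0.27, adjusted p = 0.747) and AT5G49470 (-0.24 ± 0.18, adjusted p = 0.286), were not called. In a fit of the 6 libraries alone HK2 (adjusted p = 0.00692), HK3 (adjusted p = 7.44e-04) and AT4G04340 (adjusted p = 0.0435) did pass.

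Transcription factors known as a network that restrains growth of leaves on mannitol rose in 15 of 19 tested cases and fell in 0 (median 1.17). WRKY30 was at 20.5, 16.2 and 32.7 TPM in mannitol libraries and 0.90, 0.70 and 1.68 TPM in mock libraries (3.50 ± 0.20). Rap2.6L rose by 2.22 ± 0.11, MYB51 by 2.004 ± 0.20, ZAT6 by 1.94 ± 0.14 and WRKY6 by 1.74 ± 0.19. The list comes from work on growing leaves, whereas whole seedlings were used here. In whole seedlings, fewer cells of a type and less RNA per cell cannot be told apart, which holds for every group below.

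Water channel genes fell more often than they rose. Of 28 aquaporin genes 14 fell and 7 rose (median -0.39), and the group took 0.544, 0.628 and 0.573 percent of TPM in mannitol libraries and 0.735, 0.867 and 0.813 percent in mock libraries. DELTA-TIP, a channel of the vacuole membrane, was at 111, 150.0 and 149 TPM in mannitol libraries and 507, 559 and 504 TPM in mock libraries (-1.94 ± 0.20). PIP1;5 and RD28 of the plasma membrane fell by 1.41 and 1.23, and the vacuolar TIP2 by 1.35. NIP5;1, a channel for boric acid, rose, with 33.1, 23.2 and 23.5 TPM after mannitol and 10.13, 12.2 and 14.8 TPM in mock (1.04 ± 0.16). Among 23 genes for proton pumps and ion transporters 8 rose and 3 fell, with the potassium transporter KUP6 up by 1.94 ± 0.20 and the root uptake transporter HAK5 down by 1.45.

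Genes that loosen or build the growing wall fell more often than they rose. Of 24 expansin genes 11 fell and 3 rose (median -0.23). Of 29 xyloglucan endotransglucosylase/hydrolase (XTH) genes 12 fell and 4 rose, with a median of -0.02, near that of all genes. Of 16 fasciclin-like arabinogalactan protein genes 13 fell and 2 rose (median -0.97). Summed XTH transcripts took 0.0730, 0.0796 and 0.0712 percent of TPM in mannitol libraries and 0.131, 0.153 and 0.146 percent in mock libraries. XTH4, an XTH of expanding tissue, was at 25.4, 31.9 and 20.3 TPM after mannitol and 164, 186 and 184 TPM in mock (-2.76 ± 0.16), and XTH9 and XTH16 fell by 3.096 and 2.46. EXPA8 was at 7.41, 5.28 and 7.63 TPM in mannitol libraries and 43.2, 48.1 and 44.6 TPM in mock libraries (-2.59 ± 0.17). FLA1 was at 11.3, 8.04 and 7.29 TPM after mannitol and 59.2, 54.3 and 54.5 TPM in mock (-2.55 ± 0.18), with FLA13 (-2.45 ± 0.18) and FLA2 (-2.32 ± 0.19) close to it. The expansin-like gene EXLB1 ran against its family, at 329, 292 and 334 TPM in mannitol libraries and 5.10, 5.92 and 5.37 TPM in mock libraries (5.63 ± 0.13, adjusted p = 4.69e-13), as did EXPA16 (3.51 ± 0.29). The expansin group as a whole was higher in summed TPM, with 0.0874, 0.0742 and 0.0786 percent in mannitol libraries and 0.0688, 0.0702 and 0.0649 percent in mock libraries.

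Of 14 genes for cellulose synthesis 5 rose and 6 fell. The falls named were CESA5, at 32.03, 32.2 and 29.6 TPM in mannitol libraries and 86.5, 87.4 and 99.1 TPM in mock libraries (-1.51 ± 0.26), and CESA2 (-1.19 ± 0.16), both of the complex that builds primary walls. The rises named are known for secondary walls: IRX1 (CESA8) at 11.7, 11.6 and 11.3 TPM after mannitol and 3.75, 4.94 and 4.11 TPM in mock (1.26 ± 0.22), IRX6 (1.33 ± 0.18) and CTL2 (1.37 ± 0.13). FLA11, a secondary-wall member of the fasciclin-like group, rose by 0.99 ± 0.18, and so did the laccase genes of lignin polymerisation LAC17 (1.81 ± 0.23) and IRX12 (1.497 ± 0.20) and the xylan-related gene GAUT12 (1.31 ± 0.23). These 7 genes were grouped after their values were seen, and no list of secondary-wall genes was tested. Of 19 lignin and phenylpropanoid genes 6 rose and 5 fell, among them the close relatives CAD5 (1.73 ± 0.16) and ATCAD4 (-1.74 ± 0.08) in opposite directions. Of 43 genes for pectin-modifying enzymes 9 rose and 17 fell, counts that became 5 higher without mock replicate 1 and 10 lower without mock replicate 2. Of 46 class III peroxidase genes 10 rose and 16 fell, and the most abundant of those named, PRXCB, which feeds the oxidative burst of the wall, was at 748, 902 and 823 TPM in mannitol libraries and 219, 319 and 329.7 TPM in mock libraries (1.53 ± 0.18). Of 27 classical arabinogalactan protein genes 3 rose and 11 fell, and of 22 extensin and root hair wall genes 2 rose and 3 fell. Without mannitol replicate 3, 5 of the classical genes rose, and without mannitol replicate 2, 5 of the extensin group fell.

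Genes for cell division fell or did not pass the test. In DNA replication 21 of 23 tested genes fell and 0 rose (median -1.31), and among mitotic cyclins, kinases and cytokinesis genes 19 of 32 fell and 0 rose (median -0.54). RNR1 (AT2G21790), the large subunit of ribonucleotide reductase, was at 9.64, 8.0 and 7.79 TPM in mannitol libraries and 36.2, 30.0 and 33.9 TPM in mock libraries (-1.86 ± 0.11, adjusted p = 1.72e-09). The sliding clamp gene PCNA1 was at 9.10, 6.66 and 5.73 TPM after mannitol and 29.4, 24.5 and 23.5 TPM in mock (-1.73 ± 0.16), and the helicase genes PRL (MCM7) and MCM6 fell by 1.78 and 1.62. In each the groups were apart by a wide margin. The cyclin gene CYCA2;3 fell by 1.56 and SYP111 (KNOLLE), the syntaxin of the forming cell plate, by 1.21.

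Of 40 histone genes 22 fell and 5 rose. The histone H3 gene AT5G10400 was at 23.0, 19.4 and 17.1 TPM in mannitol libraries and 90.8, 81.3 and 68.0 TPM in mock libraries (-1.96 ± 0.13), and HTA11 of the H2A.Z type fell by 1.62. In the other direction the H2B gene AT2G28720 rose by 1.48 ± 0.15, HTA12 of the H2A.W type by 0.98 ± 0.13 and the linker histone gene AT1G06760 by 0.68 ± 0.09. Histone genes are near copies of each other, so single values are uncertain. Of 11 genes for inhibitors of cyclin-dependent kinases 3 rose and 4 fell, and only 1 rose without mannitol replicate 1 or without mock replicate 1. SMR5 (AT1G07500), an inhibitor known to rise under oxidative stress, was at 22.5, 21.6 and 26.2 TPM after mannitol and at 6.78, 0 and 0 TPM in mock, where only replicate 1 was above 0 (3.62 ± 0.58, and 4.61 without that library). Of 24 leaf growth regulators 9 fell and 3 rose. GRF4, TCP4 and ANT, which set cell number and leaf size, fell by 1.55, 1.38 and 1.197, and ARL, which promotes cell expansion, rose by 1.12 ± 0.12.

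Genes of protein synthesis fell in most cases. Of 197 cytoplasmic ribosomal protein genes 184 fell and 2 rose, with a median of -1.005 against 0.02 over all genes. Together they held 3.26, 2.77 and 2.51 percent of TPM in mannitol libraries and 5.93, 5.75 and 5.61 percent in mock libraries, so the groups did not overlap. The largest fall was that of AT5G60670, a 60S subunit L12 gene, at 43.5, 36.4 and 32.1 TPM after mannitol and 141, 143 and 110.5 TPM in mock (-1.79 ± 0.14). Of 15 ribosome biogenesis genes 13 fell and 0 rose (median -0.89), including FIB1, the fibrillarin of the nucleolus, at 102, 89.2 and 86.7 TPM in mannitol libraries and 213, 202 and 228 TPM in mock libraries (-1.20 ± 0.10) and NOP56 (-1.27 ± 0.17). Of 22 initiation and elongation factor genes 13 fell and 0 rose, among them EIF4A1 (-0.73 ± 0.10). Ribosomal protein transcripts are short, mostly 660 to 1307 bases, and the 5427 other tested genes in that range had a median of -0.03.

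Upstream windows of a replication and a ribosomal protein gene are shown because both groups are known to carry site II and telo-box elements, marked here in capitals with a TATA box. RNR1 lies at chr2:9293011-9293260 (+) and AT5G60670 at chr5:24381600-24381849 (-) of TAIR10.1.
RNR1: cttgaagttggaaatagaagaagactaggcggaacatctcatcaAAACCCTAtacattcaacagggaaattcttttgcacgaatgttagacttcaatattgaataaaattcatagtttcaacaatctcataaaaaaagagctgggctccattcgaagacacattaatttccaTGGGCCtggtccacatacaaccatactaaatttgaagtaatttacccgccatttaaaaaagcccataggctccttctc
AT5G60670: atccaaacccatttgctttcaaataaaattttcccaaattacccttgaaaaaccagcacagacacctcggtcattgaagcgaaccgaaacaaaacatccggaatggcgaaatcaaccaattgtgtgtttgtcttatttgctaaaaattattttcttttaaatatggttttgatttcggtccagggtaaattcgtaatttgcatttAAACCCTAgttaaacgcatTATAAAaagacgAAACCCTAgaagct
RNR1 held a telo-box 206 bases and a site II element 78 bases before the gene start. AT5G60670 held a telo-box at 45 and 14 bases with a TATA box at 26 bases between them. Site II was found in 60.9% of the 23 DNA replication windows, 53.3% of the 197 ribosomal protein windows and 46.7% of the 15 ribosome biogenesis windows, against 15.5% of all windows. In the 1627 windows of genes that fell at least 2-fold its share was 17.3%, near that of all windows. The telo-box was found in 20.3% of ribosomal protein windows, 8.7% of DNA replication windows and 3.47% of all windows. The MSA element, known from mitotic genes, was found in 28.1% of the 32 mitotic windows and 6.11% of all windows. Among genes that fell at least 2-fold the telo-box was in 5.22% of windows and the MSA element in 6.52%.

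Photosynthesis genes fell in the antenna, in the electron transport chain, in carbon fixation and in pigment synthesis. Of 21 light-harvesting genes 12 fell and 2 rose (median -0.65), of 38 nuclear genes for photosystem cores and electron transport 25 fell and 1 rose (median -0.43), and of 22 Calvin cycle and Rubisco genes 16 fell and 0 rose (median -0.86). Calvin cycle transcripts made up 2.24, 2.06 and 2.76 percent of TPM in mannitol libraries and 5.34, 5.32 and 5.72 percent in mock libraries. The 4 Rubisco small subunit genes, whose near-identical copies share reads, summed to 10560, 8894 and 13475 TPM in mannitol libraries and 33099, 32268 and 34844 TPM in mock libraries. The mannitol mean was thus 0.329 of the mock mean. FBA1, a Calvin cycle aldolase gene, fell by 1.57 and GAPA-2, a chloroplast glyceraldehyde phosphate dehydrogenase gene, by 1.37. Photorespiration genes moved less, with 3 falls and 0 rises among 12.

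In the electron transport chain FD1, a leaf ferredoxin gene, was at 463, 416 and 493 TPM in mannitol libraries and 1345, 1313 and 1359 TPM in mock libraries (-1.55 ± 0.16). ATPD of the ATP synthase and PSBQA of the oxygen-evolving complex fell by 1.297 and 1.25. The only rise was that of PGRL1B, a component of cyclic electron flow, with 97.2, 96.5 and 98.8 TPM after mannitol and 37.6, 36.0 and 33.0 TPM in mock (1.43 ± 0.10). In the antenna LHCB6 was at 1734, 1577 and 2019.6 TPM in mannitol libraries and 3127, 3324 and 3372 TPM in mock libraries (-0.89 ± 0.13). The LHCB1 genes share reads, and their sum varied widely, at 18685, 28675 and 34941 TPM in mannitol libraries and 35296, 38512 and 39587 TPM in mock libraries. Mannitol replicate 3 thus came close to the lowest mock library, while replicates 1 and 2 lay clearly below.

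**Figure D4:**
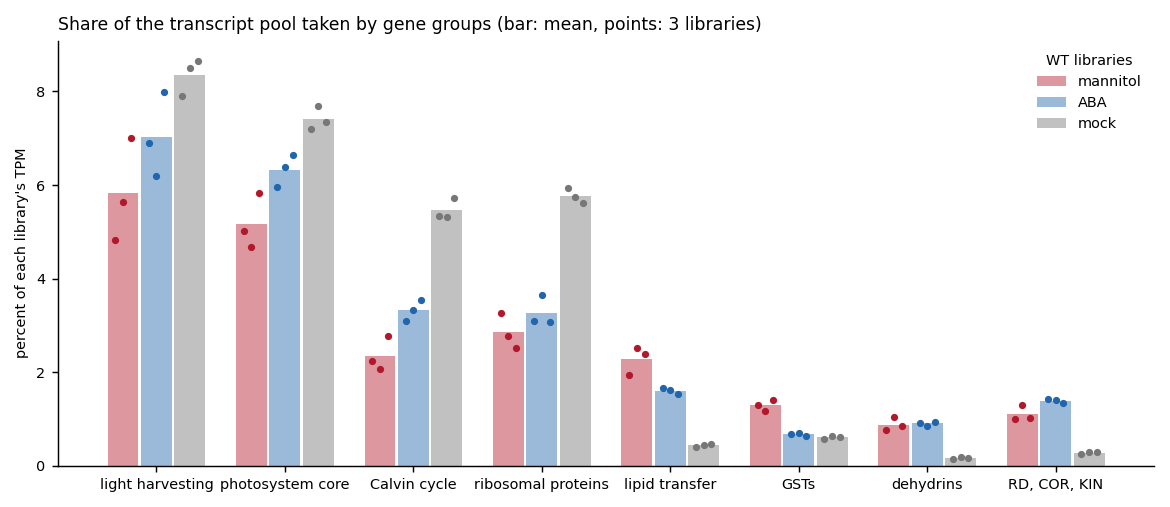
Percent of each library's TPM taken by 8 gene groups in WT mannitol (red), WT ABA (blue) and WT mock (grey), with bars at the mean and 1 point for each of 3 libraries. The 3 photosynthesis groups and the ribosomal proteins are lower in every mannitol library than in every mock library, and lipid transfer proteins, glutathione S-transferases (GSTs), dehydrins and RD, COR and KIN genes are higher.

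Most genes of chlorophyll synthesis fell, and most genes of a list that joins chlorophyll breakdown with senescence rose. Of 21 chlorophyll synthesis genes 18 fell and 0 rose (median -0.84). HEMA1, the first committed enzyme, was at 208, 198 and 223 TPM in mannitol libraries and 529.7, 561 and 527 TPM in mock libraries (-1.36 ± 0.12), and CHLM, a methyltransferase of the magnesium branch, fell by 1.39. Of 17 genes of chlorophyll breakdown and senescence 14 rose and 2 fell (median 1.27). ACD1, the oxygenase that opens the chlorophyll ring, was at 366, 385 and 365 TPM after mannitol and 37.8, 46.6 and 50.8 TPM in mock (3.03 ± 0.18), and AT4G11910, a relative of the stay-green protein, rose by 3.67 ± 0.16. SAG13, a senescence marker, rose by 3.77 ± 0.20, whereas the dark-induced gene SEN1 (AT4G35770) fell, with 104, 130.5 and 114 TPM in mannitol libraries and 162, 253 and 235 TPM in mock libraries (-0.88 ± 0.23).

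Recycling genes rose as well. Of 28 autophagy genes 22 rose and 0 fell (median 0.60), led by the ATG8 genes that decorate autophagosomes. APG8A was at 244, 306 and 219.8 TPM in mannitol libraries and 77.9, 110.4 and 108 TPM in mock libraries (1.37 ± 0.13). Of 20 genes known from darkness and sugar starvation 12 rose and 5 fell (median 0.76), with 3 falls without mannitol replicate 1 or without mock replicate 3. IVD and MCCA, which break down branched-chain amino acids, rose by 2.02 ± 0.11 and 1.40 ± 0.19, and PHI-1, an EXORDIUM-like gene, fell to 0.20, 0.69 and 0.62 TPM in mannitol libraries, against 9.32, 9.87 and 7.36 TPM in mock libraries (-2.72 ± 0.36).

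Auxin genes mostly fell, and brassinosteroid genes were divided. Of 88 auxin response genes 53 fell and 12 rose (median -0.65). The SAUR genes, which drive cell elongation, led the falls, with SAUR63 at 3.14, 4.31 and 5.07 TPM in mannitol libraries and 32.8, 39.1 and 45.5 TPM in mock libraries (-2.96 ± 0.16) and SAUR20 at -2.60 ± 0.15. SAUR36, a member tied to leaf senescence, rose by 1.78 ± 0.14. Of 21 auxin transport and synthesis genes 11 fell and 1 rose (0 without mannitol replicate 1, mannitol replicate 2 or mock replicate 1, and 2 without mannitol replicate 3), with PIN4 (-1.33 ± 0.12) and AUX1 (-1.16 ± 0.16) among the falls. Among 22 brassinosteroid genes 10 fell and 6 rose. The falls named were response genes, PRE1 with 0.37, 0.55 and 0.82 TPM after mannitol and 10.7, 9.53 and 11.8 TPM in mock (-2.89 ± 0.13), BEE2 (-2.51 ± 0.13) and EXO (-2.48 ± 0.32), and the rises named were synthesis genes, DET2 (0.80 ± 0.12), ROT3 (0.81 ± 0.14) and BR6OX2 (0.75 ± 0.14).

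Of 29 gibberellin genes 10 rose and 8 fell, with GASA6 down by 2.76, the synthesis gene GA20OX1 down by 1.72 and GA3, an earlier enzyme of synthesis, up by 1.44 ± 0.12. Of 39 cytokinin genes 17 fell and 6 rose. The type-A response regulator genes ARR15 and ARR7 fell, ARR15 to 0.44, 0.56 and 0.28 TPM in mannitol libraries, against 8.09, 5.85 and 6.59 TPM in mock libraries (-2.45 ± 0.11). LOG5, which activates cytokinin, rose by 2.07 ± 0.25. Ethylene genes were split, with 7 rises and 8 falls among 26, and ACS2, an ethylene synthesis gene, was at 10.2, 15.3 and 12.1 TPM after mannitol and 0.36, 0.77 and 0.77 TPM in mock (3.04 ± 0.19). So were jasmonate genes, with 11 rises and 8 falls among 31. The lipoxygenase genes LOX3 and LOX2 went opposite ways (1.88 ± 0.17 and -1.85 ± 0.28).

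Genes of pattern-triggered immunity rose more often than they fell, and those of salicylic acid went both ways. Of 26 genes of pattern-triggered immunity and camalexin 14 rose and 0 fell (median 0.45). CYP71A13, an enzyme of camalexin synthesis, was at 30.5, 24.6 and 36.9 TPM in mannitol libraries and 1.32, 0.86 and 1.74 TPM in mock libraries (3.78 ± 0.30). PEN3 (AT1G59870), a transporter that exports defence compounds, was at 169, 181 and 225 TPM after mannitol and 43.0, 51.8 and 67.9 TPM in mock (1.82 ± 0.27). Of 22 salicylic acid genes 5 rose and 4 fell, but only 1 rose without mock replicate 1, only 2 without mannitol replicate 2 or mock replicate 2, and 7 fell without mock replicate 2 and 1 without mock replicate 3. PR5, a thaumatin-like defence protein, rose to 146, 118 and 125 TPM in mannitol libraries, against 31.1, 16.9 and 34.2 TPM in mock libraries (2.25 ± 0.30), and the regulator gene WRKY70 fell to 5.22, 7.31 and 4.48 TPM in mannitol libraries, against 34.7, 19.0 and 39.3 TPM in mock libraries (-2.22 ± 0.24). LCR67, a defensin-like gene, was at 60.01, 30.5 and 51.1 TPM after mannitol and 0, 0.28 and 0.56 TPM in mock (5.21 ± 0.43).

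In detoxification, 22 of 49 glutathione S-transferase genes rose and 10 fell. The phi-class genes stood out: GSTF6 was at 1224, 1014 and 1613 TPM in mannitol libraries and 81.2, 109 and 111 TPM in mock libraries (3.65 ± 0.23), and GSTF3 at 52.7, 39.0 and 81.5 TPM after mannitol and 0.51, 0.86 and 1.2 TPM in mock (4.93 ± 0.21). GSTF2, GSTF3, GSTF6 and GSTF7 are similar in sequence, and their summed TPM was 6.08 times as high in mannitol as in mock. Of 31 antioxidant enzyme genes 17 rose and 5 fell, with APX2, a peroxidase of light and heat stress, at 20.9, 28.5 and 23.6 TPM after mannitol and 0.33, 0.60 and 0.52 TPM in mock (4.09 ± 0.17) and the chloroplast superoxide dismutase genes FSD2 and FSD3 down by 0.79 and 0.80. Of 46 heat shock genes 17 rose and 12 fell. The small chaperone gene ATHSP22.0 rose to 54.2, 55.9 and 42.3 TPM in mannitol libraries, against 0.51, 0.25 and 0.30 TPM in mock libraries (5.25 ± 0.23), and HSP17.4 rose by 5.07 ± 0.23, while the chloroplast chaperone genes cpHsc70-2 and CR88 fell by 1.75 and 1.03.

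Secondary products and surface lipids went different ways. Of 22 cuticular wax genes 15 rose and 0 fell (median 0.79). CER1, which makes wax alkanes, was at 203, 278 and 225 TPM in mannitol libraries and 33.9, 35.6 and 38.0 TPM in mock libraries (2.67 ± 0.14), and MYB96, a regulator of wax synthesis under drought, rose by 2.09 ± 0.18. Of 17 suberin genes 2 rose and 3 fell, and of 12 Casparian strip genes 0 rose and 2 fell. These counts were unsteady: 1 suberin gene fell without mannitol replicate 3, mock replicate 2 or mock replicate 3, and 5 Casparian strip genes fell without mannitol replicate 2 but 0 without mannitol replicate 3, mock replicate 2 or mock replicate 3. Of 17 flavonoid genes 11 fell and 2 rose (median -0.88). TT4, the chalcone synthase at the start of the pathway, was at 198, 129 and 102 TPM after mannitol and 630.4, 525 and 576 TPM in mock (-2.05 ± 0.35), while the rises were those of 2 MYB regulators of anthocyanin synthesis, MYB90 (3.25 ± 0.25) and PAP1 (AT1G56650, 1.13 ± 0.20). Of 25 glucosinolate genes 14 fell and 1 rose, with the regulator MYB29 of the aliphatic branch down by 1.48 and IMS2, a methylthioalkylmalate synthase gene of that branch, by 1.92.

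Among nutrient genes, those of phosphate starvation rose and those of sulphate fell more often than all genes did, and the shares of nitrogen and iron genes lay near or below those of all genes. Of 20 phosphate starvation genes 11 rose and 0 fell (median 0.56), with PAP17, an acid phosphatase, at 180.2, 208 and 198 TPM in mannitol libraries and 21.9, 41.7 and 29.1 TPM in mock libraries (2.67 ± 0.16). Of 17 sulphate genes 9 fell and 1 rose. ATSDI1, a sulphur deficiency marker, fell by 2.63. Of 31 nitrogen genes 9 rose and 5 fell, 8 of them without mannitol replicate 2. GDH1, a glutamate dehydrogenase, was at 133, 116 and 133 TPM after mannitol and 27.6, 33.1 and 28.5 TPM in mock (2.07 ± 0.10), and the nitrate transporter NRT1.7, which reloads nitrate from old leaves, rose by 2.4 ± 0.19. Of 18 iron uptake genes 5 rose and 3 fell, 5 of them without mannitol replicate 2. In the circadian clock 10 of 17 genes rose and 2 fell, but only 4 to 6 rose when any 1 library was left out (4 without mannitol replicate 1). Of 25 light signalling genes 5 rose and 8 fell, with PIF3, a bHLH factor of growth in darkness, at 53.1, 54.1 and 62.6 TPM in mannitol libraries and 10.4, 11.2 and 11.2 TPM in mock libraries (2.27 ± 0.16).

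Markers of cell types were read to see what the seedlings held. Of 20 stomatal genes 13 fell and 3 rose (median -0.75). Most of the falls named mark the early lineage. POLAR (AT4G31805) was at 0.32, 0.08 and 0.40 TPM in mannitol libraries and 10.2, 6.23 and 8.64 TPM in mock libraries (-2.87 ± 0.16). EPF2 was at 1.19, 0.46 and 0.52 TPM after mannitol and 6.99, 5.23 and 6.11 TPM in mock (-2.06 ± 0.17), and SPCH and BASL fell by 1.82 and 1.77. The guard cell factor MYB60 fell by 1.81. Of the 3 rises 2 are named here, OST1 and the anion channel gene OZS1 (1.26 ± 0.25), which act in mature guard cells. The third rise and the remaining falls are not described, and whether rises and falls divide by stage of the lineage was not tested. OST1 is also counted among the SnRK2 kinases. Of 21 leaf and shoot markers 17 fell and 2 rose, with 1.61, 1.51 and 1.96 percent of TPM in mannitol libraries and 3.25, 3.25 and 3.48 percent in mock libraries. Of 18 root markers 1 fell and 1 rose, with 0.226, 0.288 and 0.179 percent after mannitol and 0.209, 0.290 and 0.274 percent in mock. Without mannitol replicate 2, 6 root markers fell, and without mock replicate 2 or mock replicate 3 none did. Seed storage and embryo markers held 0.000214, 0.000216 and 0.000235 percent after mannitol and 0.000849, 0.000867 and 0.00105 percent in mock. The part of the leaf and shoot markers in the falls of photosynthesis genes was not tested.

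Set against ABA, mannitol left many levels higher and fewer lower. Mannitol libraries were higher than ABA libraries for 4151 genes (19.1%) and lower for 2391 (11.0%), with 956 and 666 at least 2-fold apart and a median log2 difference of 0.10. This split depended on scaling: with median-of-ratios factors 2985 genes were higher and 3788 lower, and the median was -0.02. The counts of the gene groups under that other scaling therefore stand in brackets beside those from TPM as deposited. Counts in brackets are to be read against its own 2985 and 3788 genes, not against 19.1% and 11.0%. The filter was applied anew after that scaling, so a few groups lost members, with 195 ribosomal protein and 45 heat shock genes left. Genes of pattern-triggered immunity, glutathione S-transferases, phosphate starvation and nitrogen were more often higher than lower in mannitol against ABA, and ABA-responsive transcription factors, PP2C and LEA genes, XTH genes and stomatal lineage genes more often lower. Mannitol and ABA libraries were correlated at 0.970 to 0.975 across all listed genes, those at 0 in every library included.

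**Figure D5:**
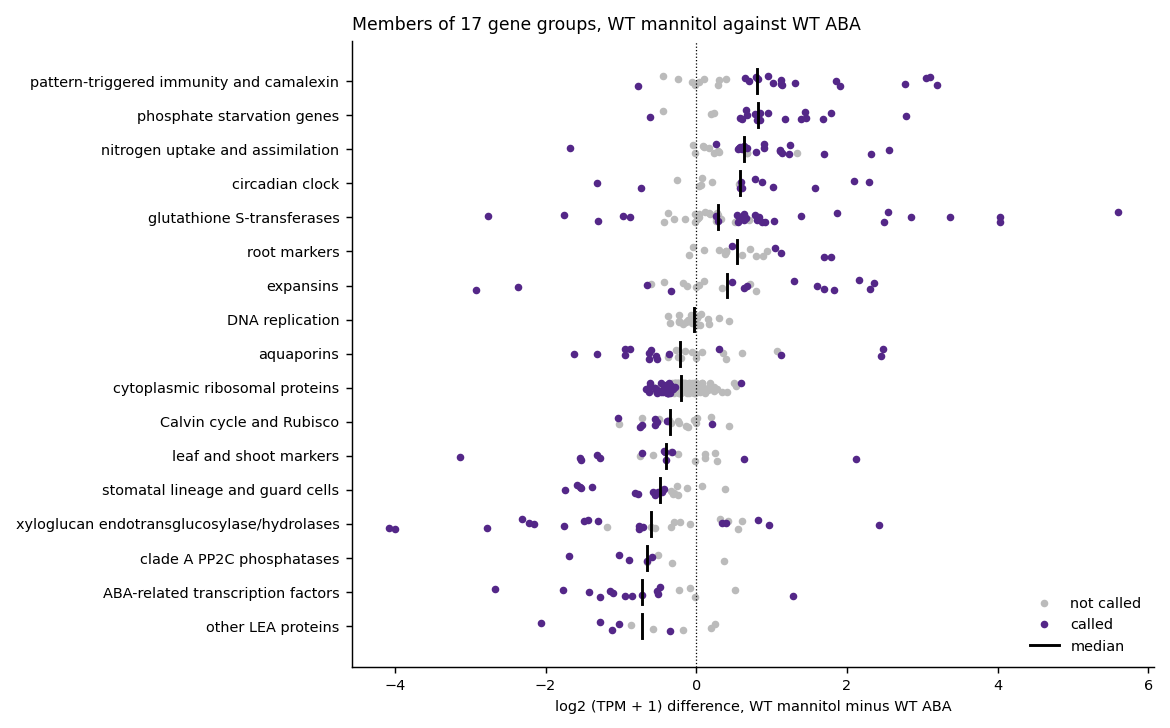
Difference of log2(TPM + 1), WT mannitol minus WT ABA, for each tested member of 17 gene groups; purple points were called, grey points were not, and the black bar is the median of the group. The median was above 0 for pattern-triggered immunity genes at the top (0.81) and below 0 for the other LEA genes at the bottom (-0.72).

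Of 26 genes of pattern-triggered immunity 16 were higher in mannitol than in ABA and 1 lower under either scaling (median 0.81). PEN3 (AT1G59870) was at 169, 181 and 225 TPM in mannitol libraries and 28.3, 18.4 and 15.1 TPM in ABA libraries (log2 difference 3.19 ± 0.27). Salicylic acid genes were divided, 4 higher and 4 lower of 22 (4 and 7 with the other scaling), with a median of -0.25. PR5, the member that differed most, had 146, 118 and 125 TPM after mannitol and 3.70, 3.06 and 1.93 TPM after ABA (5.09 ± 0.30). Of 49 glutathione S-transferase genes 23 were higher and 5 lower (19 and 6 with the other scaling), and GSTF3 was at 52.7, 39.0 and 81.5 TPM in mannitol libraries and 0.26, 0.14 and 0.09 TPM in ABA libraries (5.596 ± 0.21). Of 31 antioxidant genes 11 were higher and 7 lower, a balance that the other scaling turned round (7 and 10). The indole glucosinolate methyltransferase gene IGMT2 (4.07 ± 0.33), the methyltransferase gene PXMT1 (4.64 ± 0.24) and UGT72E1, which adds glucose to lignin precursors (4.33 ± 0.15), were higher too. EARLI1, a wall protein gene that was not called against mock (-1.01 ± 0.41, adjusted p = 0.0519, but 0.0275 in a fit of the 6 libraries alone), was at 66.8, 44.2 and 97.2 TPM after mannitol and 3.67, 1.90 and 1.89 TPM after ABA (4.303 ± 0.41). In each of these genes the mannitol libraries lay above the ABA libraries.

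Of 20 phosphate starvation genes 16 were higher in mannitol and 1 lower under either scaling (median 0.82), and of 31 nitrogen genes 19 were higher and 1 lower (14 and 1 with the other scaling). GDH1 was at 133, 116 and 133 TPM in mannitol libraries and 19.9, 23.2 and 19.8 TPM in ABA libraries (2.55 ± 0.10). PMT5, the polyol transporter gene, was at 171, 175 and 169.7 TPM after mannitol and 41.3, 36.0 and 28.4 TPM after ABA (2.27 ± 0.15, adjusted p = 4.28e-08), and ABCG40 at 13.1, 9.39 and 15.5 TPM after mannitol and 1.33, 1.38 and 0.49 TPM after ABA (2.73 ± 0.20). HK1, which did not pass the test against mock, was higher than in ABA (1.17 ± 0.11, adjusted p = 1.56e-06). Of 19 genes of the growth-repressing network 11 were higher and 3 lower (8 and 3 with the other scaling), WRKY30 by 2.67 ± 0.20. Of 27 starch and sucrose genes 13 were higher and 3 lower (11 and 5 with the other scaling), APL4 by 1.601 ± 0.16.

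On the lower side, 12 of 17 ABA-related transcription factor genes were lower in mannitol than in ABA and 1 higher under either scaling. NAC019 was at 25.2, 21.5 and 22.2 TPM in mannitol libraries and 101, 69.1 and 75.5 TPM in ABA libraries (-1.77 ± 0.15), although both lay above the 2.41, 2.85 and 2.89 TPM of mock libraries. Of 9 PP2C genes 5 were lower and 0 higher (8 and 0 with the other scaling), among them HAI3 (-1.69 ± 0.20). Of 10 other LEA genes 5 were lower and 0 higher under either scaling, among them LEA4-5 (-1.27 ± 0.28), and RD20 was at 418, 474 and 398 TPM after mannitol and 1616, 1231 and 1407 TPM after ABA (-1.71 ± 0.17). NCED3 went against this, with 64.6, 83.4 and 78.8 TPM in mannitol libraries and 40.1, 38.7 and 63.1 TPM in ABA libraries (0.69 ± 0.22, adjusted p = 0.0241), as did the SnRK2 gene SNRK2.2 (0.96 ± 0.08). LTP4, RAB18 and RD29B did not pass the test between mannitol and ABA (adjusted p = 0.313, 0.187 and 0.285). The sum of LTP3 and LTP4 was 12300, 16764 and 15359 TPM in mannitol libraries and 8863, 8350 and 7885 TPM in ABA libraries. The groups did not overlap in this sum, which was not tested.

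Of 29 XTH genes 13 were lower in mannitol than in ABA and 5 higher (15 and 3 with the other scaling). XTH6 was at 2.36, 2.76 and 4.14 TPM in mannitol libraries and 72.0, 77.4 and 54.2 TPM in ABA libraries (-4.08 ± 0.22), and XTH25, which did not pass the test against mock (0.35 ± 0.21, adjusted p = 0.183, but 0.0422 in the fit of the 6 libraries and 0.0333 with a pseudocount of 0.1), at 0.60, 0.71 and 0.35 TPM after mannitol and 30.0, 22.8 and 19.6 TPM after ABA (-4.00 ± 0.21). Expansins showed the opposite balance, 10 higher and 4 lower (8 and 5 with the other scaling), with EXPA8 at 7.41, 5.28 and 7.63 TPM after mannitol and 0.85, 0.57 and 0.75 TPM after ABA (2.16 ± 0.17). Of 28 aquaporin genes 11 were lower and 4 higher (11 and 3 with the other scaling), among them DELTA-TIP (-1.63 ± 0.20). Of 20 stomatal genes 12 were lower and 0 higher (14 and 0 with the other scaling), among them EPF2 (-1.53 ± 0.17). PDF1, a marker of the shoot epidermis, was at 44.7, 28.8 and 40.5 TPM in mannitol libraries and 310.1, 331 and 372 TPM in ABA libraries (-3.14 ± 0.23). Of 18 root markers 5 were higher and 0 lower (5 and 0 with the other scaling), and of 21 leaf and shoot markers 2 were higher and 10 lower (2 and 11 with the other scaling). Of 46 heat shock genes 17 were lower and 4 higher (25 and 3 with the other scaling), among them HSP17.6II (-3.15 ± 0.15).

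DNA replication genes were not told apart between mannitol and ABA, and some genes of photosynthesis were. None of 23 DNA replication genes differed between mannitol and ABA in the limma fit, with 1 higher and 3 lower at an unadjusted p under 0.05, and 4 were lower with the other scaling. RNR1 was at 9.64, 8.0 and 7.79 TPM in mannitol libraries and 9.21, 10.2 and 11.0 TPM in ABA libraries (-0.23 ± 0.11, adjusted p = 0.120). Of 197 ribosomal protein genes 32 were lower in mannitol and 1 higher (63 and 1 with the other scaling). In photosynthesis, FD1 was at 463, 416 and 493 TPM in mannitol libraries and 1210.3, 1190.2 and 1369.8 TPM in ABA libraries (-1.46 ± 0.16), and the 4 Rubisco small subunit genes summed to 10560, 8894 and 13475 TPM after mannitol and 15739, 18161 and 18294 TPM after ABA. Of 22 Calvin cycle genes 7 were lower in mannitol than in ABA and 1 higher (9 and 0 with the other scaling), and of 21 chlorophyll synthesis genes 8 were lower and 2 higher (13 and 2 with the other scaling). PCNA1 was not told apart between mannitol and ABA either (0.05 ± 0.16, adjusted p = 0.850).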

How the data were processed

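RNA from whole seedlings was sequenced in 18 libraries, 3 for each of 6 groups of genotype and treatment. The authors deposited TPM values per gene, rounded to 2 decimals, in which read depth is unknown. The build TAIR10 and the tools RSEM 1.3.1, HISAT2 2.1.0 and DESeq2 1.24.0 are named, with no role, per the submitters' processing notes. No column of the table belonged to any other sample.

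The filter kept genes that reached 1 TPM in 3 libraries or more. Their log2(TPM + 1) was fitted with limma 3.58.1 in R 4.3.3, with trend, a mean for each of the 6 groups and 12 residual degrees of freedom. This scale understates the changes of low genes. Tests were two-sided, Benjamini-Hochberg adjustment ran over all 21727 genes, and the threshold was 0.05. The fit was tested on simulated data. Alternatives were a pseudocount of 0.1, no filter, a fit of the 6 libraries compared, median-of-ratios factors, the replicate number as a block, leaving out each library, and, chosen after seeing the data, removal of ribosomal RNA.

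The groups of genes, 74 lists with 1751 tested genes, were chosen with earlier results of these data known. Named genes were the 15 largest rises and 15 largest falls against mock and the 8 largest differences from ABA in each direction. These had to be called, with a RefSeq symbol, a mean log2(TPM + 1) of at least 2 and no overlap between libraries. Also named were up to 5 called genes per list and up to 3 called genes against its majority, with or without a symbol or overlap. Every tested gene of the polyol and osmosensing lists was named, called or not. Of 33082 identifiers 32547 matched a RefSeq gene. Upstream windows of 250 bases were read from RefSeq's TAIR10.1 for 21386 genes and could not be read for 341.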

Additional observations from a re-analysis of the deposited data

How the results depend on the processing

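Against mock, the numbers of genes that rose and fell were 5352 and 4850 with a pseudocount of 0.1, 5625 and 5640 without the filter, 5904 and 5259 in a fit of the 6 libraries, 5109 and 6251 with median-of-ratios factors, 5405 and 5657 without ribosomal RNA, and 4696 to 5330 and 4629 to 5257 when single libraries were left out. Against ABA, median-of-ratios factors gave 3788 lower genes in place of 2391, and the cause was not tested; leaving out single libraries gave 3025 to 4094 higher and 1919 to 2127 lower genes. The replicate numbers are shared by the groups, and whether they pair the libraries cannot be settled with 3 libraries per group. Deviations of same-numbered mannitol and mock libraries correlated at 0.153, 0.181 and -0.05 across the tested genes. Those of unlike numbers correlated at -0.254 to 0.131. With the replicate number as a block, 5454 genes rose and 5378 fell against mock, and 4002 were higher and 2298 lower than in ABA.

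Of 458 tests of named genes, 408 stayed on the same side of the threshold under every alternative and 44 lost their call under at least 1. With a call in the main fit or the alternative, 0 changed direction. Changes of sign without a call were not counted, such as that of PMT6 (-0.09 without mock replicate 1). Of 148 counts of the gene lists against mock, 40 moved by over 1.5 times under some alternative, but only 2 of the counts of at least 10 did, those of the circadian clock and of pectin-modifying enzymes. In the fit of the 6 libraries 8 and 13 light signalling genes rose and fell in place of 5 and 8, 11 ethylene genes rose in place of 7, and 5 osmosensing genes fell in place of 3. With median-of-ratios factors 6 suberin genes fell in place of 3 and 0 light-harvesting genes rose in place of 2. Low genes are limited by the 2 decimals and the unknown depth.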

Other observations

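Lipid transfer protein genes were divided. Of 15 tested genes 5 rose and 6 fell against mock (median -0.54), LTP3 and LTP4 among the rises. The group took 1.94, 2.52 and 2.38 percent of TPM in mannitol libraries, of which LTP3 and LTP4 made up 1.23, 1.68 and 1.54, and 0.406, 0.451 and 0.458 percent in mock libraries. LTP2 was at 1197, 1178 and 1487 TPM after mannitol and 104, 118 and 116 TPM in mock (3.49 ± 0.18). LTP5 was at 281, 324 and 277 TPM in mannitol libraries and 794, 907 and 988 TPM in mock libraries (-1.60 ± 0.19), and DIR1, a lipid transfer protein of systemic immunity, at 10.9, 11.6 and 17.99 TPM after mannitol and 57.7, 80.8 and 55.98 TPM in mock (-2.20 ± 0.22).

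Several of the largest changes lie in genes of other functions. CYP76C2, a cytochrome P450 gene, varied little within mannitol and within mock but more within ABA, at 89.5, 89.4 and 89.7 TPM in mannitol libraries, 120.0, 63.5 and 86.6 TPM in ABA libraries and 0.73, 0.76 and 0.80 TPM in mock libraries (5.68 ± 0.22 against mock). ChlAKR, a chloroplast enzyme that reduces reactive aldehydes, was at 253, 269 and 251 TPM after mannitol and 21.9, 25.2 and 28.6 TPM in mock (3.31 ± 0.13). MRD1, first found as a gene repressed in a methionine overaccumulating mutant, was at 0.45, 0.69 and 1.33 TPM in mannitol libraries, 28.9, 31.6 and 32.6 TPM in ABA libraries and 39.5, 37.6 and 36.6 TPM in mock libraries. Mannitol libraries thus lay below both other groups in MRD1 (-4.44 ± 0.18 against mock and -4.16 ± 0.18 against ABA). The thionin gene THI2.2, whose product is an antimicrobial peptide, was at 1.89, 2.84 and 3.38 TPM after mannitol and 39.4, 41.7 and 45.2 TPM in mock (-3.56 ± 0.13). TBL45, of a family that acetylates wall polysaccharides, fell by 3.57 against mock, and GER3, a germin-like protein gene, by 3.22.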
